A study of Mus musculus with 9 samples.

Results

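The genes that encode the proteins of the cytosolic ribosome were read across 3 groups of sorted mouse cells. Members were all genes whose symbol is Rpl or Rps with a number, or Rpsa, Rplp0, Rplp1 or Rplp2, and that have a probe set annotated to that symbol alone. Kinases of the Rps6k family and pseudogene symbols were left out. This gave 59 genes of 19937, of which 22 encode or resemble proteins of the small subunit and 37 of the large subunit. Each gene was represented by its brightest probe set, taken by the mean over all 9 arrays, out of 191 probe sets that carry a member's symbol. A further 16 genes of the family, among them Rpl3, Rpl11 and Rps27, lie only on probe sets that carry several symbols and are not among the members.

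The series profiled microglia, the resident macrophages of the brain, together with spleen monocytes, and its title speaks of a cell subset that maintains and regenerates microglia. There were 3 arrays each of Ly6C-high microglia, which the labels call MgSCs, Ly6C-low microglia, which they call bulk microglia, and spleen monocytes, for which the Ly6C label holds a dash. All cells came from untreated wild type C57BL/6 mice. Brains were perfused and digested, leukocytes were enriched on Percoll, and sorting used antibodies against MHC class II, Ly6C, F4/80, CD11b and CD45. The labels used here give neither the gates and the spleen's preparation nor the animals' age and how many were pooled for an array. They also leave unsaid whether the arrays of a group stand for different animals, and each p-value therefore reflects only how far these samples spread, which may be technical.

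A ribosome has a small subunit, which binds the messenger and decodes it, and a large subunit, which joins amino acids and lets the new chain out through a tunnel. Most of its proteins are needed in equal numbers, and cells tend to make them together. Their messengers start with a C followed by a run of C and T bases at the 5′ end, the terminal oligopyrimidine tract, through which the mTORC1 kinase and the RNA-binding protein LARP1 control their translation and stability. Ribosome production is high in growing and dividing cells and low in resting ones. Microglia of the healthy adult brain are known as slowly dividing cells, while monocytes arise from dividing precursors in bone marrow and spleen.

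Sequence around the transcription start was available for 47 of the 59 members, in RefSeq's promoter table on mouse build GRCm38.p6, and for 12 it was not. The 30 bases around the start are shown for 6 members that the results below turn on, 15 before the start and 15 after it, 5′ to 3′ on the gene's strand. They show C and T bases on either side of the annotated start, and capitals mark an unbroken run of at least 8 C or T bases. The windows are Rpl4 at chr9:64173372-64173401 on the plus strand, Rps18 at chr17:33955651-33955680 on the minus strand, Rpl13 at chr8:123102335-123102364 on the plus strand, Rps27l at chr9:66946071-66946100 on the plus strand, Rplp0 at chr5:115559452-115559481 on the plus strand and Rpl27 at chr11:101442230-101442259 on the plus strand.
Rpl4: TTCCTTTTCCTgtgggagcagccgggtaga
Rps18: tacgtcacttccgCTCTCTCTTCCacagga
Rpl13: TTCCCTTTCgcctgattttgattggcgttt
Rps27l: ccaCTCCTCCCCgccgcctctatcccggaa
Rplp0: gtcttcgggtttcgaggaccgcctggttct
Rpl27: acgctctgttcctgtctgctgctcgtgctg
The first 4 hold such a run and the last pair does not, within these letters. Only in Rps18 does the run cross the annotated start. In Rpl4, Rpl13 and Rps27l it lies wholly before that start, outside the annotated messenger. A run near the start is therefore not a measure of the messenger's terminal tract. Runs of at least 8 C or T bases on the gene's strand were counted between 20 bases before and 30 after the start. One was found at 24 of 56 member starts (42.9%) and at 18.5% of the 19176 starts that belong to genes measured here.

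Other motifs were counted over the whole promoter entry, and all starts again means those of genes measured here. CTTCCG or its reverse complement CGGAAG, the core of sites for ETS family factors, was found on either strand within 300 bases at 62.5% of member starts and 22.1% of all starts. TCTCGCG or its reverse complement CGCGAGA, the arm of a palindrome known from housekeeping promoters, was found at 23.2% of member starts, in 12 genes that include Rps6, Rps13, Rps15a and Rps19, and at 3.78% of all starts. TATAAA, the letters of a TATA box, was found at 10.7% and 11.5%. These 3 motifs do not contain one another, although the pyrimidine part of CTTCCG can lie within a pyrimidine run. The 120 bases before the start are shown for a gene that was lower in both brain groups, Rps18 (chr17:33955666-33955785, minus strand), for one whose differences did not pass with the deposited values of its brightest probe set, Rps6 (chr4:86857368-86857487, minus strand), and for the member with the lowest difference between Ly6C-low microglia and monocytes, Rps27l (chr9:66945966-66946085, plus strand), with matches to CTTCCG and TCTCGCG on either strand in capitals.
Rps18: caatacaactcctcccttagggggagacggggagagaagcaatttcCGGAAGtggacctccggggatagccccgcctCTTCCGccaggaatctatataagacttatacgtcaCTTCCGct
Rps6: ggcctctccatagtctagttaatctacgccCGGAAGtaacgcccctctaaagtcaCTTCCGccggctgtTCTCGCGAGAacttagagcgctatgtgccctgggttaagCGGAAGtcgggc
Rps27l: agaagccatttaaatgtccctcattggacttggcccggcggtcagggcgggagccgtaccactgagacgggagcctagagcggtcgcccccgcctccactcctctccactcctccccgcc
Rps18 and Rps6 each hold 3 matches to CTTCCG and Rps27l holds 0 in these stretches, and in Rps6 the arms of TCTCGCG overlap into the whole palindrome. A match is a stretch of letters and not a measured binding site.

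Values are log2 intensities as deposited. Differences are log2 differences between group means ± standard error (SE), and each adjusted p is from limma adjusted by Benjamini and Hochberg's method across the 19937 genes and read at a threshold of 0.05. The number of arrays limits the precision. A probe set's level was compared between groups and not with the level of another gene. Array medians over all probe sets lay between 5.83 and 5.96. The interquartile range was 2.24 on Ly6C-high replicate 1 and 2.62 to 2.91 on the other arrays.

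The sorted groups also differed in markers of other cells. Mean log2 intensity over 18 brain endothelium markers was 10.4 to 10.9 on the Ly6C-high arrays, 6.19 to 7.47 on the Ly6C-low arrays and 6.14 to 6.21 on the monocyte arrays, and 18 of 18 were higher in Ly6C-high than in Ly6C-low microglia. Over 19 homeostatic microglia markers the means were 8.58 to 9.29, 11.1 to 11.5 and 7.87 to 8.02 in the same order. On the monocyte arrays, means over 8 B cell markers (8.77 to 9.22) and 10 T and NK cell markers (8.09 to 8.86) stood above those on all brain arrays (5.64 to 6.48 and 5.38 to 5.97). Over 13 neutrophil markers the monocyte arrays read 9.78 to 10.6, Ly6C-low replicate 3 read 9.16 and the other brain arrays read 6.22 to 7.55. Over 13 classical monocyte markers, Ly6C-high replicate 2 read 10.3 against 7.93 and 7.14 on the other Ly6C-high arrays, 6.68 to 7.19 on the Ly6C-low arrays and 10.81 to 11.04 on the monocyte arrays. The part of these other cells in the results below was not tested, and fewer cells of a type cannot be told apart from less RNA per cell.

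Ribosomal protein genes passed the test in 1 direction only, lower in brain cells than in spleen monocytes. In Ly6C-high microglia 33 of 59 members were lower and 0 were higher, against 14.6% lower and 6.88% higher over all genes. In Ly6C-low microglia 21 of 59 were lower and 0 higher, against 7.71% and 6.8% over all genes. The median member difference was -0.66 in Ly6C-high and -0.58 in Ly6C-low microglia, where the medians over all genes were 0.09 and 0.05. Both comparisons use the same monocyte arrays, so they are not independent of each other. Between the brain groups the median member difference was -0.05, and 0 members passed the test in either direction.

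**Figure D1:**
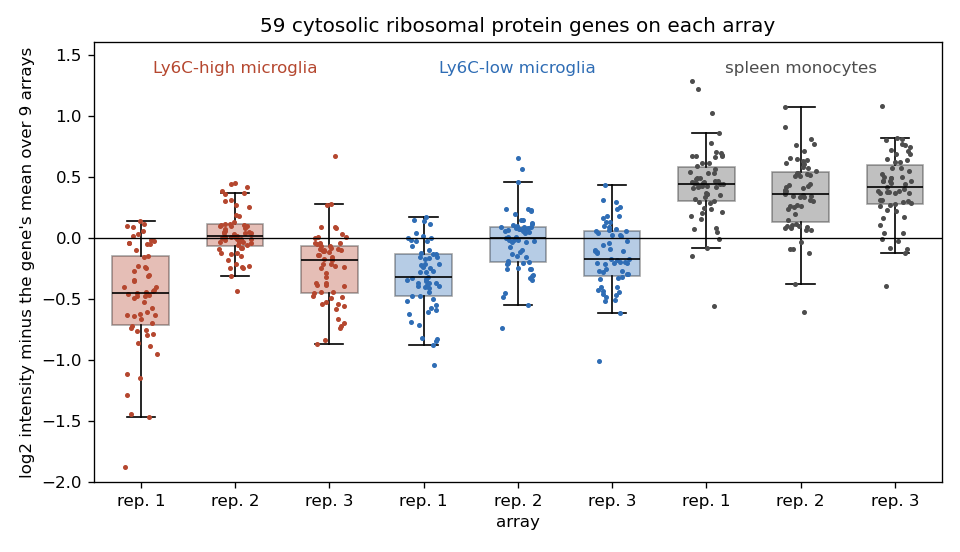
Each point is 1 of the 59 ribosomal protein genes on 1 array, as its log2 intensity minus that gene's mean over the 9 arrays (y axis), with the arrays of the 3 groups along the x axis. Boxes span the quartiles with the median as a line, and whiskers reach the last point within 1.5 interquartile ranges. The boxes of all 3 monocyte arrays lie above 0, and the lowest box is that of Ly6C-high replicate 1.

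The member median was 12.03, 11.93 and 11.93 on monocyte replicates 1 to 3. It was 11.10, 11.37 and 11.25 on Ly6C-low replicates 1 to 3, and 10.83, 11.37 and 11.05 on Ly6C-high replicates 1 to 3. No brain array reached the lowest monocyte array by this measure, while the brain groups overlapped each other. All 3 Ly6C-high arrays lay below all 3 monocyte arrays in 45 of 59 members (76.3%, against 21.9% of all genes), and the Ly6C-low arrays did so in 45 as well, against 19.1% of all genes. Differences were below 0 for 54 members in Ly6C-high microglia (41.9% of all genes) and 56 in Ly6C-low microglia (39.7%). Members varied more between Ly6C-high arrays than elsewhere, with a median SD of 0.30 there, 0.19 in Ly6C-low microglia and 0.10 in monocytes. Over all genes the median SDs were 0.27, 0.14 and 0.11.

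Both subunits held genes that were lower. Of the small subunit's 22 members, 11 were lower in Ly6C-high and 7 in Ly6C-low microglia, with median differences of -0.65 and -0.51. Of the large subunit's 37, 22 and 14 were lower, with medians of -0.66 and -0.58. Over all genes 14.6% and 7.71% were lower in Ly6C-high and Ly6C-low microglia. The difference between the subunits was not tested.

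Among proteins of the large subunit, Rpl4 and Rpl8 gave differences that passed in both comparisons and under each of 21 alternative settings. Rpl4, whose protein reaches into the exit tunnel, read 12.18, 12.17 and 12.21 in monocytes, 11.42, 11.56 and 11.55 in Ly6C-low microglia and 11.01, 11.40 and 11.24 in Ly6C-high microglia. The 3 groups did not overlap. The difference from monocytes was -0.97 ± 0.12 in Ly6C-high (adjusted p = 0.000805) and -0.68 ± 0.12 in Ly6C-low microglia (adjusted p = 0.00558). Rpl8, a protein close to the site where peptide bonds form, read 11.64, 11.55 and 11.55 in monocytes, 10.21, 10.53 and 10.31 in Ly6C-low microglia and 10.03, 10.65 and 10.57 in Ly6C-high microglia. Both brain groups lay about equally far below the monocytes, with differences of -1.16 ± 0.17 in Ly6C-high (2.23-fold, adjusted p = 0.00212) and -1.23 ± 0.17 in Ly6C-low microglia (2.34-fold, adjusted p = 0.00173).

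**Figure D2:**
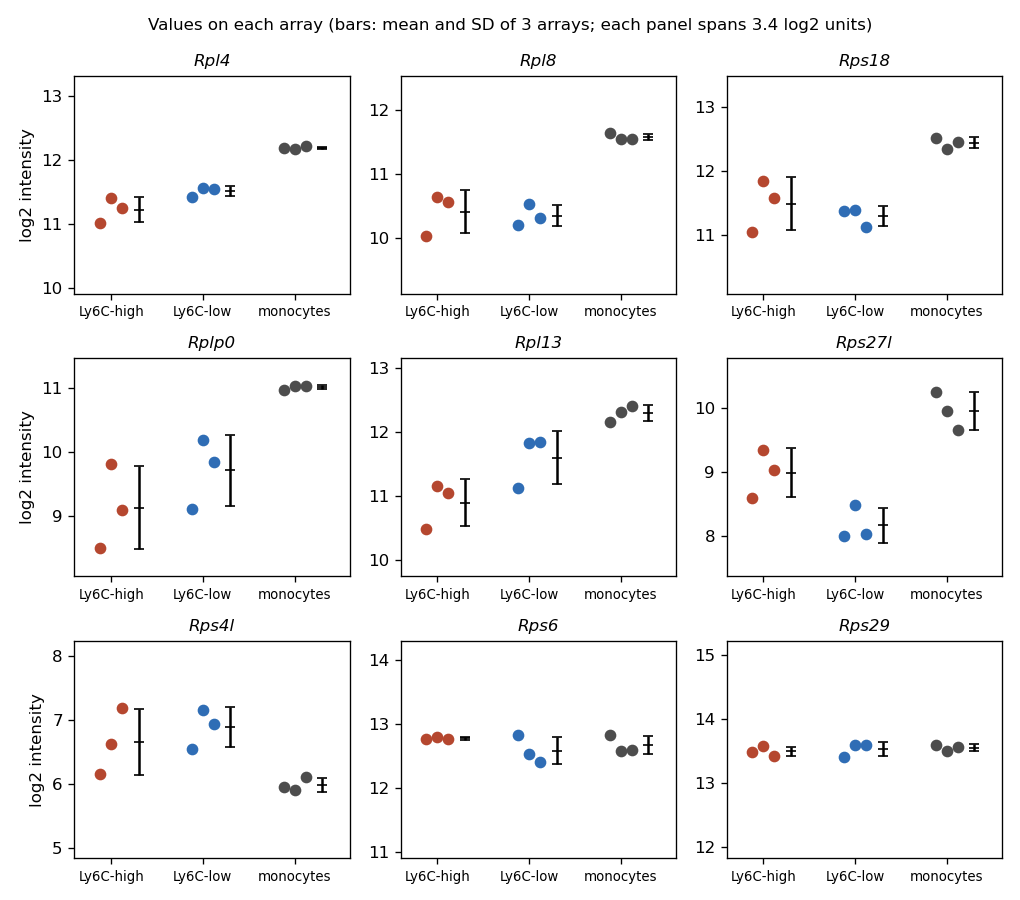
Log2 intensity (y axis) of 9 ribosomal protein genes on each array, with points for the 3 arrays of a group in replicate order and bars for the mean and SD of the 3. Each panel spans 3.4 log2 units. Monocytes stand above both brain groups for Rpl4, Rpl8, Rps18, Rplp0, Rpl13 and Rps27l, below them for Rps4l, and overlap them for Rps6 and Rps29.

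Rpl13, a large subunit protein on the outer face of the ribosome, had the second lowest difference in Ly6C-high microglia. Its monocyte arrays read 12.16, 12.31 and 12.41, the Ly6C-low arrays 11.12, 11.82 and 11.85 and the Ly6C-high arrays 10.48, 11.16 and 11.05. It fell by 1.4 (SE 0.24, 2.64-fold, adjusted p = 0.00446) in Ly6C-high microglia against monocytes, a call that held under all 21 alternatives. In Ly6C-low microglia the difference was -0.70 ± 0.24 and did not pass (adjusted p = 0.0967). Rpl27, mutated in some families with Diamond-Blackfan anaemia, read 12.24 to 12.36 in monocytes, 11.37 to 11.52 in Ly6C-low and 11.20 to 11.76 in Ly6C-high microglia. Its differences of -0.87 ± 0.15 and -0.82 ± 0.15 passed for Ly6C-high (adjusted p = 0.00508) and Ly6C-low microglia (adjusted p = 0.00784), the latter under all 21 alternatives.

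Other large subunit members with wide differences rested on fewer settings. Rpl14 differed by -1.16 ± 0.29 in Ly6C-high (adjusted p = 0.024) and -1.19 ± 0.29 in Ly6C-low microglia (adjusted p = 0.0272). The former call ended without Ly6C-high replicate 1 or monocyte replicate 1 (adjusted p from 0.0636 to 0.0816), and the latter without any 1 Ly6C-low array or monocyte replicate 1 (adjusted p from 0.0527 to 0.0942). Rpl19 differed by -1.37 ± 0.30 in Ly6C-high microglia (adjusted p = 0.0143, and 0.0518 without monocyte replicate 2), while its difference of -0.92 in Ly6C-low microglia did not pass (adjusted p = 0.0871). Rpl24 differed by -0.92 ± 0.25 and -0.95 ± 0.25 (adjusted p = 0.0321 and 0.036), and both calls ended without any 1 monocyte array or Ly6C-low replicate 3, the former also without Ly6C-high replicate 1 or 3 and the latter without Ly6C-low replicate 1 (adjusted p up to 0.0908 and 0.105). Rpl5, which carries the 5S ribosomal RNA into the large subunit, had the widest error of all members. Its monocyte arrays read 11.19, 11.14 and 11.24, the Ly6C-low arrays 9.89, 10.64 and 10.79 and the Ly6C-high arrays 8.62, 10.51 and 10.45, with replicate 1 lowest in both brain groups, and neither difference passed (-1.33 ± 0.48, adjusted p = 0.0799, and -0.75 ± 0.48, adjusted p = 0.4).

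In the small subunit Rps18, a protein of the subunit's head, and Rps3, which lines the channel where the messenger enters, passed in both comparisons. Rps18 read 12.51, 12.34 and 12.45 in monocytes, 11.37, 11.39 and 11.12 in Ly6C-low and 11.04, 11.84 and 11.58 in Ly6C-high microglia. It differed by -1.14 ± 0.19 in Ly6C-low microglia (2.21-fold, adjusted p = 0.00497, held under all 21 alternatives) and by -0.95 ± 0.19 in Ly6C-high microglia (adjusted p = 0.0105, held under 20 of 21). Rps3 read 11.23 to 11.43 in monocytes, 10.41 to 10.73 in Ly6C-low and 9.95 to 10.65 in Ly6C-high microglia. Its difference was -0.98 ± 0.18 in Ly6C-high microglia (adjusted p = 0.00653, held under all 21) and -0.76 ± 0.18 in Ly6C-low microglia (adjusted p = 0.0242). The latter call ended without any 1 of 5 arrays, which were Ly6C-low replicates 1 and 3 and each monocyte array (adjusted p from 0.0615 to 0.0857).

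Rps7, Rps10 and Rps13 completed the small subunit members with the lowest differences that passed. Rps7, also known for binding the p53 regulator MDM2, differed by -0.93 ± 0.19 in Ly6C-low microglia (adjusted p = 0.0108, and 0.0511 without monocyte replicate 1) and by -0.67 ± 0.19 in Ly6C-high microglia (adjusted p = 0.0341, and up to 0.117 without any 1 Ly6C-low or monocyte array). Rps10 read 12.32, 12.64 and 12.68 in monocytes, 11.19, 12.34 and 12.19 in Ly6C-low and 10.41, 11.76 and 11.40 in Ly6C-high microglia, again with replicate 1 lowest in both brain groups. Its difference in Ly6C-high microglia was -1.36 ± 0.39 (adjusted p = 0.0395, and up to 0.114 without any 1 monocyte array, Ly6C-high replicate 1 or 3 or Ly6C-low replicate 3). Rps13 differed by -1.04 ± 0.25 and -0.95 ± 0.25 in Ly6C-high and Ly6C-low microglia (adjusted p = 0.0213 and 0.0379), and both calls ended without any 1 monocyte array, the former also without Ly6C-high replicate 1 and the latter without Ly6C-high replicate 3 or Ly6C-low replicate 1 or 3 (adjusted p up to 0.0682 and 0.112).

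The stalk of the large subunit, formed by Rplp0, Rplp1 and Rplp2, recruits the factors that drive elongation. Rplp0, its base, had the lowest difference of all members in Ly6C-high microglia. It read 10.97, 11.02 and 11.03 in monocytes, 9.10, 10.18 and 9.84 in Ly6C-low and 8.5, 9.80 and 9.08 in Ly6C-high microglia, so that monocyte arrays lay within 0.1 of each other while brain arrays spread over more than 1 log2 unit within a group. The difference was -1.88 ± 0.35 in Ly6C-high microglia (3.68-fold, adjusted p = 0.00651, held under all 21 alternatives). In Ly6C-low microglia it was -1.30 ± 0.35 (2.46-fold, adjusted p = 0.0397), a call that ended without any 1 monocyte array, Ly6C-high replicate 3 or Ly6C-low replicate 1 or 3 (adjusted p from 0.0547 to 0.118). Rplp1 differed by -0.66 ± 0.15 in Ly6C-high microglia (adjusted p = 0.015, and 0.0527 to 0.0559 without monocyte replicate 1 or 3) and by -0.33 ± 0.15 in Ly6C-low microglia, which did not pass (adjusted p = 0.208). Rplp2 overlapped between all groups, at 8.36 to 8.80 in monocytes, 8.23 to 8.60 in Ly6C-low and 7.95 to 8.71 in Ly6C-high microglia.

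For some members the groups overlapped or did not pass the test. Rps6, the small subunit protein that the mTORC1 pathway phosphorylates through S6 kinases, read 12.84, 12.59 and 12.60 in monocytes, 12.83, 12.53 and 12.41 in Ly6C-low and 12.77, 12.81 and 12.77 in Ly6C-high microglia. Its differences from monocytes were 0.11 ± 0.13 in Ly6C-high and -0.09 ± 0.13 in Ly6C-low microglia, and neither passed. With cyclic loess the former was 0.67 and passed (adjusted p = 0.0422). With the mean of its 7 probe sets the differences were -0.31 and -0.52, and the latter passed (adjusted p = 0.0227), so the direction for Rps6 depended on the setting. Of the single probe sets 2 were lower in both comparisons, the second brightest at -0.56 and -0.61 (adjusted p over probe sets = 0.023 and 0.0194) and the third brightest at -0.53 and -0.66 (adjusted p over probe sets = 0.0447 and 0.0247). Rps29 read 13.49 to 13.59 in monocytes and 13.40 to 13.59 over the 6 brain arrays, near the top of the table's range of 2.54 to 13.81, where intensities can be compressed. Its differences of -0.06 and -0.02 turned to 0.48 and 0.39 with cyclic loess (adjusted p = 0.0213 and 0.0498). Rpsa, which is both a small subunit protein and a laminin receptor at the cell surface, read 11.50 to 11.78 in monocytes and 10.29 to 11.38 over the brain arrays. Its differences of -0.81 ± 0.25 and -0.80 ± 0.25 did not pass (adjusted p = 0.0507 and 0.0728), although they passed under 7 and 6 of 21 alternatives, among them the mean of its probe sets (-1.17 and -1.05). Of its other probe sets 2 were lower in both comparisons, one at -1.41 and -1.09 (adjusted p over probe sets = 0.00447 and 0.016) and one at -1.67 in each (adjusted p over probe sets = 0.0143 and 0.0169).

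A list of 5 paralogs among the members was described apart, some of them with restricted or stress-regulated expression. Rps27l, a p53 target that resembles Rps27, read 10.26, 9.95 and 9.66 in monocytes, 8.59, 9.35 and 9.04 in Ly6C-high and 8.0, 8.49 and 8.03 in Ly6C-low microglia, and the 3 groups did not overlap. It differed from monocytes by -1.79 ± 0.24 in Ly6C-low microglia (3.45-fold, adjusted p = 0.00135, held under all 21 alternatives), the lowest difference of all members there. In Ly6C-high microglia it differed by -0.97 ± 0.24 (adjusted p = 0.0218), and that call ended without Ly6C-high replicate 1, monocyte replicate 1 or monocyte replicate 2 (adjusted p from 0.0534 to 0.0836). Rps4l, a gene that closely resembles Rps4x, had the highest difference of all members in both comparisons. It read 5.95, 5.9 and 6.11 in monocytes, 6.55, 7.16 and 6.94 in Ly6C-low and 6.15, 6.62 and 7.18 in Ly6C-high microglia, and every brain array lay above every monocyte array. Its differences of 0.66 ± 0.26 in Ly6C-high and 0.89 ± 0.26 in Ly6C-low microglia did not pass (adjusted p = 0.0999 and 0.0518), although the latter passed under 9 of 21 alternatives.

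The other 3 paralogs, Rpl3l of striated muscle and Rpl10l and Rpl39l of the testis, are dim, with means over all arrays below the median of all gene means (6.13). Rpl10l differed by -0.66 ± 0.17 in Ly6C-high microglia (adjusted p = 0.0267), a call that ended without any 1 monocyte array (adjusted p from 0.0625 to 0.091). Rpl3l read 4.83 to 5.08 over all 9 arrays and Rpl39l 4.38 to 4.94, and their differences passed no test. Without these 5 paralogs, 31 and 20 of 54 members were lower in Ly6C-high and Ly6C-low microglia, against 14.6% and 7.71% of all genes.

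**Figure D3:**
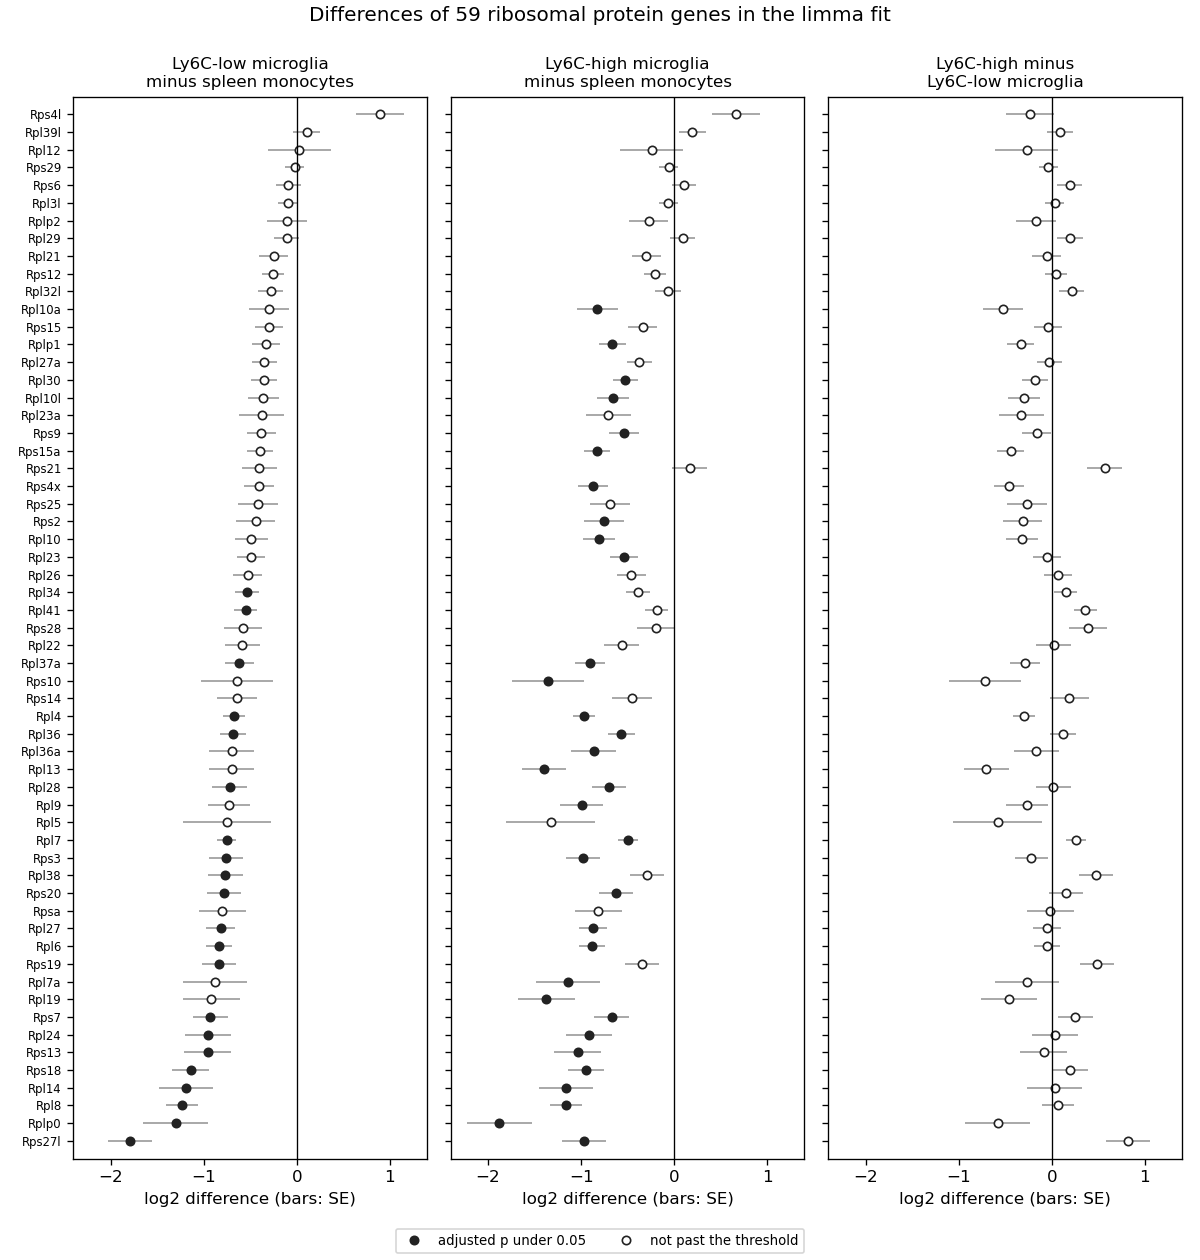
Log2 difference (x axis) of each of the 59 ribosomal protein genes (y axis) in the 3 comparisons, with bars for the SE and filled points for an adjusted p under 0.05. Genes are ordered by the difference between Ly6C-low microglia and monocytes. Nearly all points of the first 2 panels lie left of 0, apart from Rps4l at the top, while the third panel scatters around 0 and has no filled point.

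Members were also grouped by what their proteins do. Of 10 measured genes of Diamond-Blackfan anaemia, a failure of red cell production caused by mutations in ribosomal protein genes, 5 were lower in Ly6C-high and 4 in Ly6C-low microglia. These shares (50% and 40%) were near those over all members (55.9% and 35.6%). Over all genes 14.6% and 7.71% were lower. Rps19, the gene mutated most often in that disease, differed by -0.84 ± 0.18 in Ly6C-low microglia (adjusted p = 0.0172, and 0.0603 to 0.0701 without Ly6C-low replicate 2 or 3 or monocyte replicate 1) and by -0.35 ± 0.18 in Ly6C-high microglia (adjusted p = 0.19). Of 6 genes at the peptide exit tunnel 2 were lower in each comparison (33.3%). Rpl38 at that site, known for its part in translating patterning genes in the embryo, differed by -0.77 ± 0.19 in Ly6C-low microglia (adjusted p = 0.0268, and 0.068 to 0.0952 without any 1 monocyte array or Ly6C-low replicate 1 or 3) and by -0.29 ± 0.19 in Ly6C-high microglia (adjusted p = 0.261). Of 5 genes of the decoding site and messenger channel 2 and 1 were lower (40% and 20%), and of 3 genes of the 5S particle and p53 signalling 1 and 0 (33.3% and 0%). Whether any of these short groups differs from the other members was not tested.

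The differences that passed nearest to 0 were those of Rpl7 (-0.50 ± 0.11), Rpl30 (-0.53), Rps9 (-0.54) and Rpl23 (-0.54) in Ly6C-high microglia and of Rpl34 (-0.54) and Rpl41 (-0.55) in Ly6C-low microglia. With cyclic loess those of Rpl7, Rpl23 and Rps9 in Ly6C-high microglia turned to 0.08, 0.04 and 0.04. The calls of Rpl30, Rps9, Rpl23, Rpl34 and Rpl41 each ended without any 1 of 4 to 7 arrays, monocyte replicate 1 among them (adjusted p up to 0.122). Rpl7 was also lower in Ly6C-low microglia (-0.75 ± 0.11, adjusted p = 0.00176). Rpl41 encodes the smallest ribosomal protein, and its difference in Ly6C-high microglia was -0.19 ± 0.12 (adjusted p = 0.275). Over all members the SE of a difference ran from 0.10 for Rps29 to 0.48 for Rpl5, with a median of 0.18.

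The counts depended on single arrays, and the shares over all genes moved as well. In Ly6C-high microglia 33 lower members became 21 without Ly6C-high replicate 1 and 14, 18 and 16 without monocyte replicates 1, 2 and 3. The share of all genes lower went from 14.6% to 12.6%, 8.73%, 8.87% and 10.2% in the same order. The member medians were then -0.52, -0.65, -0.68 and -0.64. In Ly6C-low microglia 21 became 11 and 9 without Ly6C-low replicates 1 and 3, and 7, 11 and 12 without monocyte replicates 1, 2 and 3. Over all genes 7.71% became 5.43% and 5.43%, and 5.04%, 5.4% and 6.31%. The member medians were then -0.48 and -0.53, and -0.55, -0.59 and -0.58. With arrays scaled by quantile normalization 18 members were lower in Ly6C-high microglia, against 9.43% of all genes. With cyclic loess 9 of 59 were lower and 3 higher in Ly6C-high microglia and 12 lower and 1 higher in Ly6C-low microglia. Over all genes cyclic loess gave 10.2% and 7.91% lower, and 1569 and 1558 of 19937 higher. The excess of lower members in Ly6C-high microglia was thus small under that setting. Both arrays of description number 8, replicate 1 of each brain group, were also left out. Then 30 were lower and 1 higher in Ly6C-high and 28 lower and 1 higher in Ly6C-low microglia. Over all genes 13.3% and 7.8% were lower under that setting, and 1418 and 1656 of 19937 were higher. Among the 9969 brighter genes alone, 34 and 21 of 56 members were lower, against 28.8% and 13.7% of all genes fitted. The members' median differences were -0.42 and -0.47 with quantile normalization and -0.14 and -0.31 with cyclic loess.

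**Figure D4:**
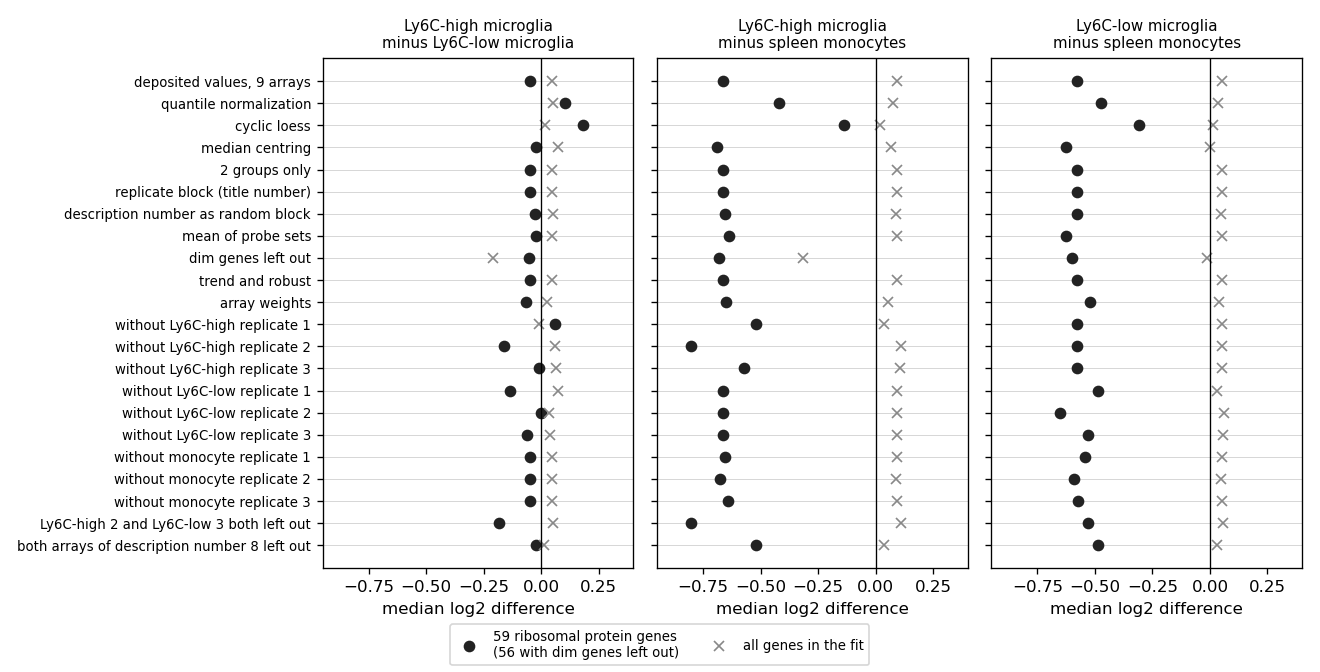
Median log2 difference (x axis) over the ribosomal protein genes (filled points) and over all genes in the fit (crosses) under the deposited values and 21 alternative settings (y axis), in a panel per comparison. Against monocytes the filled points lie below 0 under every setting shown and come nearest to 0 with cyclic loess, at -0.14 and -0.31. Between the brain groups they lie on either side of 0.

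Between Ly6C-high and Ly6C-low microglia, the comparison of the subset with bulk microglia, 0 of 59 ribosomal protein genes passed the limma test in either direction, against 15.4% of all genes (4.49% higher and 11% lower). At an unadjusted p under 0.05 there were 11 (18.6%), below the share over all genes (28.2%). Member differences ran from -0.72 (Rps10) to 0.82 (Rps27l), and 34 of 59 were below 0, against 43.8% of all genes. Arrays of the brain groups stood fully apart for 3 members that were lower in Ly6C-high microglia (Rpl4, Rps15a and Rps4x) and for 5 that were higher (Rpl7, Rpl41, Rps19, Rps21 and Rps27l), against 17.2% and 12.9% of all genes. With single arrays left out, 0 to 2 members were higher and 0 to 4 lower. Over all 19937 genes 594 to 1189 were then higher and 6.83% to 13.5% lower. Scaling by quantile normalization gave 5 higher and 0 lower, and cyclic loess 9 higher and 0 lower. Over all 19937 genes these settings gave 1181 and 1202 higher, and 8.6% and 8.76% lower. With the description number, which pairs of brain arrays share, as a random block, 2 were higher and 3 lower.

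Rps27l came nearest to the threshold in this comparison. It was 0.82 ± 0.24 higher in Ly6C-high microglia (1.77-fold, adjusted p = 0.0505), with every Ly6C-high array (8.59 to 9.35) above every Ly6C-low array (8.0 to 8.49). It passed under 6 of 21 alternatives, with adjusted p from 0.00259 to 0.246. Rps15a differed by -0.44 ± 0.14 (adjusted p = 0.0708), Rps21 by 0.57 ± 0.19 (adjusted p = 0.0799) and Rpl13 by -0.70 ± 0.24 (adjusted p = 0.0901). Rpl38 differed by 0.48 ± 0.19 (adjusted p = 0.137) and passed under 6 of 21 alternatives (adjusted p from 0.00291 to 0.421). Its 4 probe sets ran from 0.44 to 0.95. Dimmer ones passed at 0.78 (adjusted p over probe sets = 0.0298) and 0.95 (adjusted p over probe sets = 0.0281), while the brightest did not.

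Replicate 1 was the lowest array of its group for most members in both brain groups. Ly6C-high replicate 1 was lowest for 42 of 59 members (71.2%, against 30.2% of all genes) and Ly6C-low replicate 1 for 41 (69.5%, against 35.1%). Both carry the number 8 in the labels' description field, which the labels do not explain. Within number 8 the median member difference between Ly6C-high and Ly6C-low microglia was -0.14, with 40 of 59 below 0. Within number 11, the other number that both groups share, it was 0.14, with 23 of 59 below 0, so the median's sign turned between the numbers. Rps27l had the highest member difference in each, at 0.59 and 1.32. The number's part in these differences was not tested.

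Probe sets of the same gene mostly agreed in sign against monocytes. Of the 191 probe sets with a member's symbol, 173 were below 0 and 73 were called lower in Ly6C-high microglia, against 9.93% lower over all probe sets, and 181 were below 0 and 48 were lower in Ly6C-low microglia, against 5.16%. None was called higher in these comparisons, while 5 were higher and 0 lower between Ly6C-high and Ly6C-low microglia. In that comparison 7.49% of all probe sets were lower, and 4.49% of all genes were higher. Of 38 members with several probe sets, 8 had differences of both signs in Ly6C-high microglia (Rpl10, Rpl10a, Rpl21, Rpl23a, Rpl27a, Rpl7a, Rps25 and Rps6) and 4 in Ly6C-low microglia (Rpl23a, Rpl27a, Rps12 and Rps25). Rpl27a was the widest of these, at -0.91 to 1.43 over its 9 probe sets in Ly6C-high microglia. For Rpl13 all 9 probe sets were below 0 in Ly6C-high microglia, at -2.46 to -0.26, and for Rps18 all 7 were, at -1.57 to -0.29. Between the brain groups 20 of the 38 had differences of both signs. These were Rpl5, Rpl6, Rpl7a, Rpl10, Rpl10a, Rpl13, Rpl19, Rpl21, Rpl23a, Rpl24, Rpl27a, Rpl28, Rpl36a, Rps2, Rps6, Rps12, Rps15, Rps18, Rps25 and Rpsa. Rpl21 ran from -0.55 to 1.09 there, the latter passing (adjusted p over probe sets = 0.0125), while its brightest probe set stood at -0.05. Ribosomal protein genes have many processed pseudogenes of nearly the same sequence, so an intensity can include signal from copies, and the values of single genes are uncertain to that extent.

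Other messengers share the terminal oligopyrimidine tract with ribosomal proteins. Of 17 measured genes of that list other than ribosomal proteins, 12 were lower in Ly6C-high and 5 in Ly6C-low microglia than in monocytes. These are 70.6% and 29.4% of the list, against 14.6% and 7.71% of all genes, and the medians were -0.88 and -0.65. The list shares genes with other lists described below, such as Eif3e, Eef1b2 and Btf3, so these lists are not independent of each other. Btf3, a subunit of the complex that meets nascent chains, differed by -1.33 (adjusted p = 0.00341) in Ly6C-high and -1.05 (adjusted p = 0.012) in Ly6C-low microglia. Eef1a1, the factor that brings aminoacyl-tRNA to the ribosome, differed by -0.70 (adjusted p = 0.0092) and -0.21 (adjusted p = 0.438). Among the ribosomal protein genes with a promoter entry, the 23 with a pyrimidine run near the start had median differences of -0.70 and -0.64. The 24 without one had -0.78 and -0.58. Such a run can lie before the annotated start, so this split does not separate messengers with the tract from those without.

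Factors that start translation were lower in part in Ly6C-high microglia. There 20 of 34 measured initiation factors were lower (58.8%, against 14.6% of all genes) and 0 higher (median -0.87). In Ly6C-low microglia 8 were lower (23.5%, against 7.71% of all genes) and 0 higher (median -0.53). Subunits of eIF3, the largest initiation factor, were among them, with Eif3m at -2.33 (adjusted p = 0.00578) in Ly6C-high and Eif3e at -1.5 (adjusted p = 0.000363) in Ly6C-low microglia. Of 13 elongation and release factors 6 were lower in Ly6C-high microglia (46.2%, against 14.6% of all genes). In Ly6C-low microglia 1 was lower and 1 higher (7.69% each, near the 7.71% and 6.8% of all genes). The higher one was Eef2k, the kinase that slows elongation (1.21, adjusted p = 0.00245).

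A minority of the genes that build ribosomes passed between the brain groups. Of 63 measured ribosome biogenesis genes 13 were lower and 2 higher in Ly6C-high than in Ly6C-low microglia, with a median of -0.43. These are 20.6% and 3.17% of the list, against 11% and 4.49% of all genes. The lowest were Rrs1, needed for the assembly of the large subunit (-2.14, adjusted p = 0.000222), Nop2, a methyltransferase of ribosomal RNA (-2.0, adjusted p = 0.000237), and Pes1, which acts in large subunit maturation (-1.5, adjusted p = 0.000476). Against monocytes 33 were lower and 0 higher in Ly6C-high microglia, and 11 were lower and 1 higher in Ly6C-low microglia. The higher one was Nop2 (1.42, adjusted p = 0.00129). The shares lower were 52.4% and 17.5%, against 14.6% and 7.71% of all genes. In Ly6C-low microglia 1.59% of the list were higher, against 6.8% of all genes. Of 12 genes of RNA polymerase I, which transcribes ribosomal RNA, 3 were lower in Ly6C-high than in Ly6C-low microglia (25%, against 11% of all genes). Against monocytes 7 were lower in Ly6C-high microglia (58.3%, against 14.6% of all genes) and 0 in Ly6C-low microglia (against 7.71% of all genes). Whether these lists differ from the ribosomal protein genes was not tested.

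Messenger levels were read for 21 genes of mTORC1 and of its control of ribosomal protein messengers. The kinase's activity and that control itself were not measured. Rptor, the subunit that brings substrates to mTORC1, was lower in Ly6C-high than in Ly6C-low microglia (-2.28, adjusted p = 2.9e-05) and stood above monocytes in Ly6C-low microglia (1.5, adjusted p = 0.000153) and below them in Ly6C-high microglia (-0.77, adjusted p = 0.00477). Larp1 was lower in Ly6C-high microglia than in both other groups (-0.53, adjusted p = 0.0401, against Ly6C-low microglia and -0.81, adjusted p = 0.00504, against monocytes). In the whole list 1 gene was higher and 3 were lower between Ly6C-high and Ly6C-low microglia, 5 were lower in Ly6C-high microglia than in monocytes, and 2 were higher and 2 lower in Ly6C-low microglia than in monocytes. Between the brain groups the shares (4.76% higher and 14.3% lower) were near those of all genes (4.49% and 11%), as they were in Ly6C-low microglia against monocytes (9.52% each way, against 6.8% and 7.71%). In Ly6C-high microglia 23.8% were lower, against 14.6% of all genes.

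Mitochondrial ribosomal proteins, which serve a separate ribosome, had medians of -0.48 and -0.52 for the large subunit (48 genes) and -0.45 and -0.47 for the small one (30 genes) in Ly6C-high and Ly6C-low microglia against monocytes. Of the large subunit's genes 6 and 10 were lower and 0 higher, and of the small subunit's 4 and 5 were lower and 2 and 1 higher. The shares lower in Ly6C-high microglia (12.5% and 13.3%) did not exceed that of all genes (14.6%), and in Ly6C-low microglia they were 20.8% and 16.7%, against 7.71% of all genes. Of 20 measured aminoacyl-tRNA synthetase genes, whose products charge tRNAs, 8 and 1 were lower, and of 18 factors of nascent chain handling and ribosome quality control 5 and 1 were lower. These are 40% and 5% of the first list and 27.8% and 5.56% of the second, against 14.6% and 7.71% of all genes. Of 29 cell division genes 12 were lower in Ly6C-low and 3 in Ly6C-high microglia than in monocytes (medians -1.09 and -0.55). These are 41.4% and 10.3%, against 7.71% and 14.6% of all genes. Between the brain groups 3 were higher in Ly6C-high microglia (10.3%, against 4.49% of all genes), among them Kif23, a motor of cytokinesis (1.71, adjusted p = 0.00791). The list's mean was 6.29, 7.41 and 6.03 on Ly6C-high replicates 1 to 3, 5.85 to 5.97 on the Ly6C-low arrays and 6.69 to 7.53 on the monocyte arrays. Ly6C-high replicate 2, highest of the brain arrays here, also read highest of them on classical monocyte markers. Its part in the difference was not tested.

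**Figure D5:**
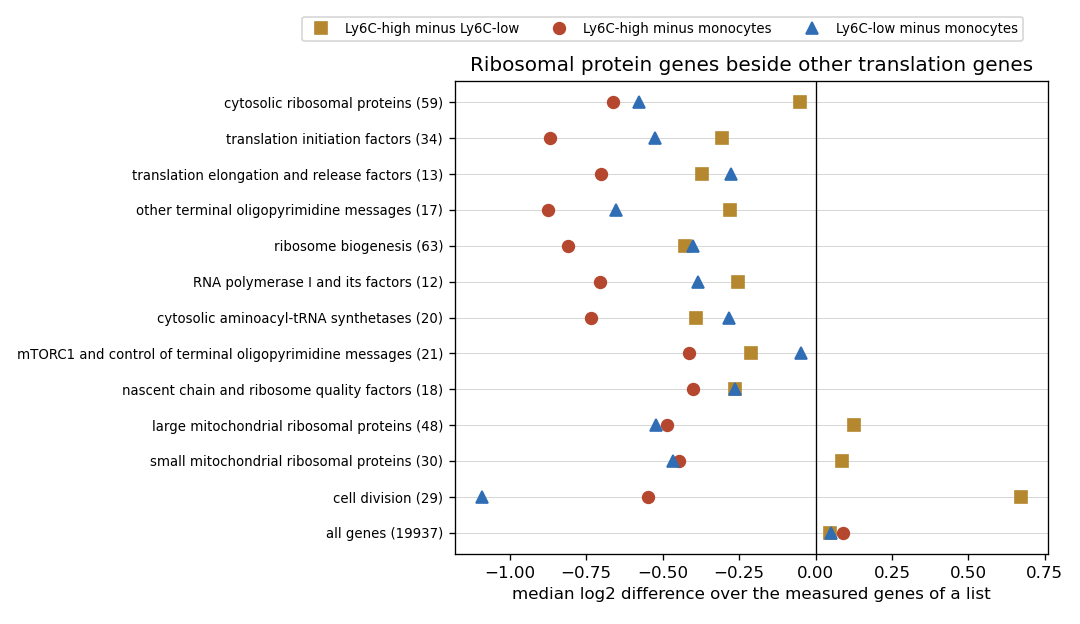
Median log2 difference (x axis) over the measured genes of each list (y axis, with their number) in the 3 comparisons. Against monocytes the medians of all lists shown lie below 0, and the cytosolic ribosomal proteins stand at -0.66 and -0.58. Between Ly6C-high and Ly6C-low microglia their median is -0.05, where ribosome biogenesis stands at -0.43 and cell division at 0.67. The cell division mean was highest on replicate 2 among the Ly6C-high arrays.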

How the data were processed

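RNA of sorted cells was measured on 9 Affymetrix arrays, 3 in each group. Per the submitters' processing notes, RMA and oligo were used. Which genome build, versions and settings were used is not given in the sources used here. Log2 intensities were deposited by the authors for 34760 probe sets, none missing. Platform annotation, which can be old, gives 21640 probe sets 1 symbol, 1321 several and 11799 none, and 21553 gene IDs matched RefSeq's table with 0 symbols changed. The brightest probe set by mean represented the 954 genes with several.

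R 4.3.3 with limma 3.58.1 (two-sided moderated tests after lmFit and eBayes) fitted 3 group means to the deposited log2 values of all 9 arrays. The fit was tested on simulated data. Promoters are RefSeq's, 250 bases before to 50 after each start, and motifs were chosen with the sequences in view. No test was run over a list.

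Members and lists were chosen with earlier results of these data known. The text names, per comparison, the 8 highest and 8 lowest members among those passing, the stalk, paralogs, Rpsa, Rps6, members whose probe sets disagree in sign, and up to 3 passing genes a list, of which some are given. Other members named, such as Rpl5, Rps21, Rps29 and Rps4x, were chosen after their values were seen. 1 list symbol was matched through an older name. Title numbers were not used as pairs in the fit. Correlations of same-numbered arrays' deviations from group means ran from -0.073 to 0.301, which cannot settle whether arrays were paired. The highest over all genes were those of arrays with a shared description number. They were 0.301 for replicate 1 of both brain groups and 0.21 for Ly6C-high replicate 2 with Ly6C-low replicate 3. The fit as designed has no term for that number. The 21 alternatives include 2 added after the data were seen.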

Additional observations from a re-analysis of the deposited data

How the results depend on the processing

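Between the brain groups, counts of members higher in the Ly6C-high one (0 with the deposited values) were 5 with quantile normalization, 9 with cyclic loess, 2 with the description number as a random block (consensus correlation 0.295), 3 with the mean of a gene's probe sets, 1 with dim genes left out, 1 with array weights and 3 with both number 8 arrays left out. Counts lower were 3 with the random block, 4 with array weights, 1 with the arrays of number 11 (Ly6C-high 2, Ly6C-low 3) left out and 2 without the number 8 arrays. Leaving out single arrays gave 0 to 2 members higher and 0 to 4 lower, against 6.83% to 13.5% of all genes lower.

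Against monocytes, 18 members were lower in Ly6C-high microglia with quantile normalization, and 9 were lower and 3 higher with cyclic loess. The shares of all genes lower were 9.43% and 10.2%. Array weights gave 1 higher, as did leaving out the number 8 arrays. Single arrays left out gave 14 to 42 lower and 0 to 1 higher, against 8.73% to 19% of all genes lower. In Ly6C-low microglia 12 were lower with cyclic loess, 33 with only the 2 groups in the fit, 42 with array weights and 13 without the number 11 arrays. Over all genes 7.91%, 12.6%, 14.8% and 6.91% were lower in the same order. There was 1 higher with cyclic loess, with 2 groups only, with the description number block, with dim genes left out, with trend and robust fitting, with array weights and without the number 8 arrays, and single arrays left out gave 7 to 31 lower and 0 to 1 higher. Over all genes single arrays left out gave 5.04% to 10% lower in Ly6C-low microglia. With cyclic loess the member medians were -0.14 and -0.31 in Ly6C-high and Ly6C-low microglia. There 36 and 47 members were below 0, where 54 and 56 were with the deposited values. Among members that passed under either setting, Rpl7 (0.0834), Rpl23 (0.0379), Rpl36 (0.0037), Rps9 (0.0365) and Rps29 (0.48) turned above 0 in Ly6C-high microglia and Rps29 (0.39) in Ly6C-low microglia. Leaving out dim genes moved the median over all genes to -0.21, -0.32 and -0.02 in the 3 comparisons. The cause of these changes was not tested.

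With the title's replicate number as a replicate block, 0 members were higher and 1 lower between the brain groups, 37 were lower in Ly6C-high and 24 lower and 1 higher in Ly6C-low microglia against monocytes. The numbers are not shown to pair arrays.

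Over the other lists together, 41, 102 and 59 genes passed in the 3 comparisons. The counts were 26 with 2 groups only between the brain groups, 60 with quantile normalization for Ly6C-high microglia and 120 with 2 groups only and 158 with array weights for Ly6C-low microglia against monocytes. Single arrays left out gave 21 to 68, 48 to 157 and 27 to 90. The lowest came without Ly6C-low replicate 3, monocyte replicate 1 and monocyte replicate 1, and the highest without Ly6C-high replicate 2, Ly6C-high replicate 2 and Ly6C-high replicate 1.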
